A study of Mus musculus with 6 samples.

Results

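The genes described are Alb, Ttr, Hp, Fga, Fgb, Fgg, Ahsg, Ambp, Itih3 and Agt, 10 of the 16978 genes in the deposited table, which encode proteins that the liver secretes into plasma. They were selected on their counts in these same libraries, so their difference between IL17B and PBS is described and carries no test of its own. All 10 are also among the upregulated DEGs (differentially expressed genes) listed by the study. The libraries are bulk RNAseq of BMDM, which are macrophages grown from the bone marrow of the femur, here of wild type C57BL/6 mice. Cells were cultured with 25 ng/ml M-CSF, collected on day 7, and treated for 6 hours with 200 ng/ml IL17B (3 samples) or with PBS as the control (3 samples). All 6 libraries share the genotype, the strain and the culture medium, and were read as single-end reads of 50 bases. The study's C57BL/6 mice were bought as females of 6 to 8 weeks. The age at which the marrow was taken is not given in the sources used here, nor whether the 3 samples of a treatment were separate cultures or separate mice. Any p-value below is thus relative to the scatter of these 6 samples, which could be technical in origin.

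Plasma proteins are made for the most part by hepatocytes, the epithelial cells of the liver, where their transcripts are among the most abundant of the cell. They carry hormones, lipids and heme through the blood, form the fibrin clot, and hold proteases in check. In inflammation the liver changes their output, in the response known as the acute phase: fibrinogen and haptoglobin rise in response to IL6, while albumin and transthyretin fall. Macrophages are not a main source of these proteins, but they bind and take up several of them.

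The library totals were alike, between 20271411 and 20653322 counts. Between replicates of a treatment the variance was 4.93 to 10.1 times that of counting error, over the genes with enough counts. Each library had a clear macrophage profile. All 10 markers of a macrophage list, among them Csf1r, Adgre1 and Lyz2, were detected in all 6 libraries and summed to between 28810 and 31180 CPM (CPM are counts scaled to the TMM-normalized library size). In the plasma protein genes, however, IL17B replicates 2 and 3 stood apart from the other 4 libraries. IL17B replicate 1 had the level of the PBS libraries. Each level is therefore given per library, and group values are given with and without the libraries concerned.

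Over the 10 genes together, 20, 31 and 30 counts were found in PBS replicates 1, 2 and 3. IL17B replicates 1, 2 and 3 had 19, 3480 and 1228 counts. On the CPM scale the sums were 0.972, 1.504 and 1.47 under PBS, and 0.932, 170.0 and 59.9 under IL17B. The 10 genes thus held 0.0169% of all counts in IL17B replicate 2 (exact Clopper-Pearson 95% interval 0.0163 to 0.0175) and 0.00599% in IL17B replicate 3 (0.00566 to 0.00634). Intervals cover counting error only. All 10 were detected in both of these libraries. In the other 4 libraries 2, 2, 3 and 2 of the 10 were detected. A count of 0 allows a level of up to 0.146 to 0.147 CPM in a single library, at 3 counts.

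**Figure D1:**
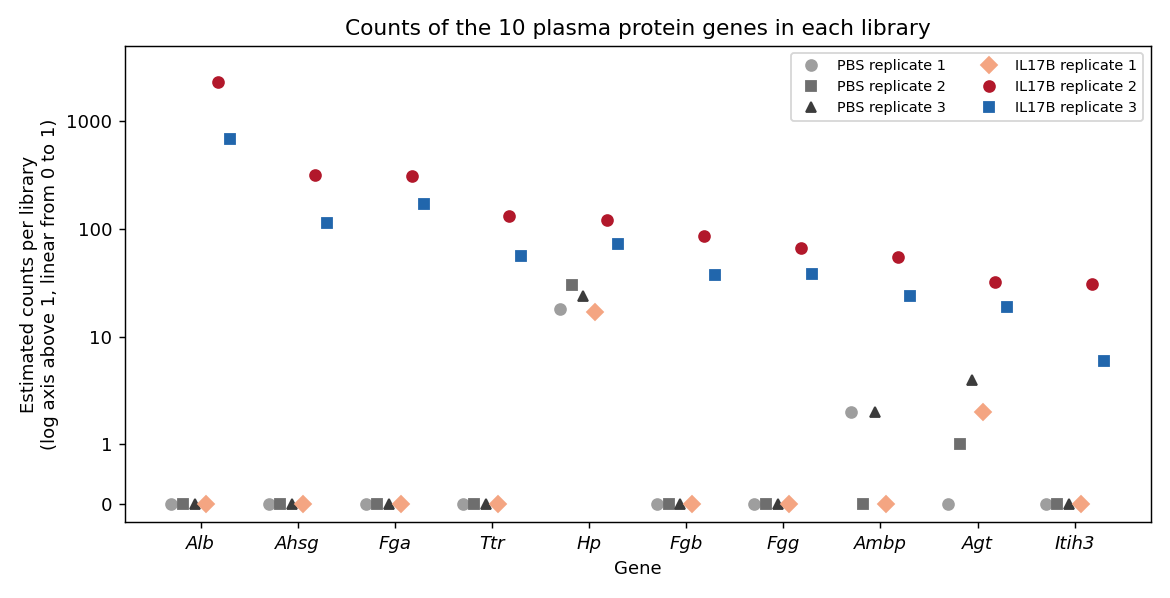
Estimated counts of the 10 plasma protein genes (x axis, in order of their counts in IL17B replicate 2) in each of the 6 libraries, 1 point per library, on an axis that is logarithmic above 1 and linear from 0 to 1. For each gene IL17B replicates 2 and 3 lie above the other 4 libraries, which overlap with each other and are at 0 for 7 of the 10 genes.

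Among the carrier proteins, Alb (albumin, the main protein of plasma, which binds fatty acids and many other ligands) had the highest counts of the 10. It had 0 counts in the 3 PBS libraries and in IL17B replicate 1, 2334 counts in IL17B replicate 2 and 691 counts in IL17B replicate 3. Both libraries were thus far above the others, while IL17B replicate 1 could not be told from PBS. With the summed PBS libraries set at the 3 counts that 0 allows (a floor of 0.0487 CPM), Alb was at least 2341-fold higher in IL17B replicate 2 and at least 692-fold higher in IL17B replicate 3. Alb alone made up 67.1% of the counts of the 10 genes in IL17B replicate 2 (exact 95% interval 65.5 to 68.6) and 56.3% in IL17B replicate 3 (53.4 to 59.1), so the intervals of the libraries did not overlap.

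Ttr (transthyretin, which carries thyroxine and, through retinol-binding protein, vitamin A) had 0 counts in the same 4 libraries, 131 counts in IL17B replicate 2 and 56 counts in IL17B replicate 3. This was at least 131-fold and at least 56.1-fold above the PBS floor. Hp (haptoglobin, which captures free hemoglobin) was the only gene of the 10 with counts in each library: 18, 30 and 24 under PBS, and 17, 122 and 72 in IL17B replicates 1, 2 and 3. Its level in IL17B replicate 1 was below each PBS library, and those of replicates 2 and 3 were above each PBS library. The ratio to the PBS mean was 5.10 in IL17B replicate 2 (exact 95% interval 3.78 to 6.92) and 3.00 in IL17B replicate 3 (2.14 to 4.22).

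The genes of the 3 fibrinogen chains lie side by side on chromosome 3 of GRCm38.p6, Fgg at 83007724 to 83015056, Fga at 83026153 to 83033627 and Fgb at 83042246 to 83049863. Their products join into fibrinogen, which thrombin cleaves to form the fibrin clot. All 3 had 0 counts in the 3 PBS libraries and in IL17B replicate 1. In IL17B replicates 2 and 3, Fga had 308 and 172 counts, Fgb had 86 and 37 counts and Fgg had 66 and 38 counts. The 3 chains were therefore detected together in the same libraries, each with more counts in IL17B replicate 2. Against the PBS floor Fga was at least 309-fold and 172-fold higher, Fgb at least 86.3-fold and 37.0-fold higher, and Fgg at least 66.2-fold and 38.0-fold higher, in replicates 2 and 3. Per transcript length Fga was above the other chains, at 4.41 FPKM (exact Poisson 95% interval 3.93 to 4.93) in IL17B replicate 2. Fgb was at 2.46 FPKM (1.97 to 3.04) and Fgg at 1.89 FPKM (1.46 to 2.41) in that library, with intervals that overlapped each other but not that of Fga.

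Of the inhibitors, Ahsg (fetuin-A, which binds calcium phosphate and inhibits mineralization) had 0 counts in 4 libraries, 315 counts in IL17B replicate 2 and 113 counts in IL17B replicate 3. It was at least 316-fold and 113-fold above the PBS floor. Ambp (the precursor of alpha-1-microglobulin and of bikunin, a protease inhibitor) had 2, 0 and 2 counts under PBS and 0, 55 and 24 counts under IL17B. The ratio to the PBS mean was 41.4 (exact 95% interval 15.3 to 157.2) in replicate 2 and 18.02 (6.19 to 71.5) in replicate 3, wide intervals that come from the 4 counts in PBS. Itih3 (a heavy chain that bikunin and hyaluronan are joined to) had the lowest counts, 31 in IL17B replicate 2, 6 in IL17B replicate 3 and 0 in the other 4 libraries, at least 31.1-fold and 6.01-fold above the PBS floor. Agt (angiotensinogen, from which renin releases angiotensin) had 0, 1 and 4 counts under PBS and 2, 32 and 19 counts under IL17B. The ratio for Agt was 19.3 (7.45 to 63.3) in replicate 2 and 11.4 (4.12 to 39.1) in replicate 3, while IL17B replicate 1 lay within the PBS range.

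Levels of different genes were compared by the deposited FPKM, which is scaled to transcript length. Alb stood highest in both libraries, at 55.0 FPKM (52.8 to 57.3) in IL17B replicate 2 and 16.4 FPKM (15.2 to 17.6) in IL17B replicate 3, followed by Ahsg at 10.2 FPKM (9.08 to 11.4) and 3.67 FPKM (3.03 to 4.41). Next in IL17B replicate 2 were Ttr at 5.27 FPKM (4.41 to 6.25), Hp at 4.45 FPKM (3.70 to 5.31) and Fga at 4.41 FPKM (3.93 to 4.93). These 3 did not differ beyond counting error, and in IL17B replicate 3 their order was Hp (2.64 FPKM), Fga (2.47 FPKM) and Ttr (2.27 FPKM). Fgb, Ambp and Fgg formed a lower group, at 2.46, 2.13 and 1.89 FPKM in IL17B replicate 2 and 1.06, 0.94 and 1.09 FPKM in IL17B replicate 3, again with overlapping intervals. Agt and Itih3 were the lowest in both libraries. Agt was at 0.85 FPKM (0.581 to 1.2) and Itih3 at 0.53 FPKM (0.36 to 0.752) in IL17B replicate 2.

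**Figure D2:**
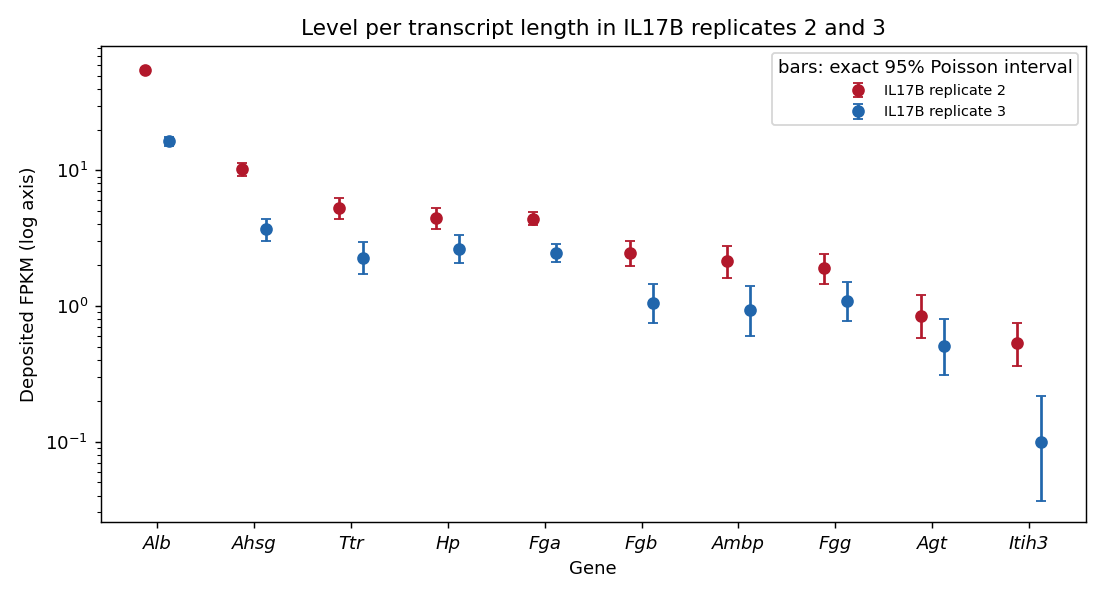
Deposited FPKM of the 10 genes (logarithmic axis) in IL17B replicates 2 and 3, with bars for the exact Poisson 95% interval of the counts. Alb is highest and Itih3 lowest in both libraries, and the intervals of Ttr, Hp and Fga, and those of Fgb, Ambp and Fgg, overlap within each library.

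Each of the 10 genes had more CPM in IL17B replicate 2 than in IL17B replicate 3. Pooled over the 10 genes the ratio of replicate 2 to replicate 3 was 2.84 (exact Clopper-Pearson 95% interval 2.66 to 3.03). It was 2.14 (1.93 to 2.37) without Alb and 1.87 (1.60 to 2.19) for the 3 fibrinogen chains. Single genes ranged from 1.69 for Agt (0.928 to 3.15) to 5.18 for Itih3 (2.13 to 15.2), with a median of 2.31. By comparison, the median ratio over all 13712 tested genes with counts in both libraries was 1.00, with quartiles of 0.926 and 1.08. The genes did not share a single ratio within counting error. The intervals of 6 of the 10 held the pooled value, and of the other 4, Alb lay above it at 3.39 (3.11 to 3.69) and Fga at 1.79 (1.48 to 2.18), Fgg at 1.74 (1.15 to 2.67) and Hp at 1.70 (1.26 to 2.31) lay below it. The ratio of Hp, the gene with the most counts in the other libraries, was 2.01 once the mean of the other 4 libraries had been subtracted, a step chosen after seeing the data. Fibrinogen chains accordingly took a larger share of the 10 genes' counts in IL17B replicate 3, 20.1% (17.9 to 22.5), than in IL17B replicate 2, 13.2% (12.1 to 14.4).

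**Figure D3:**
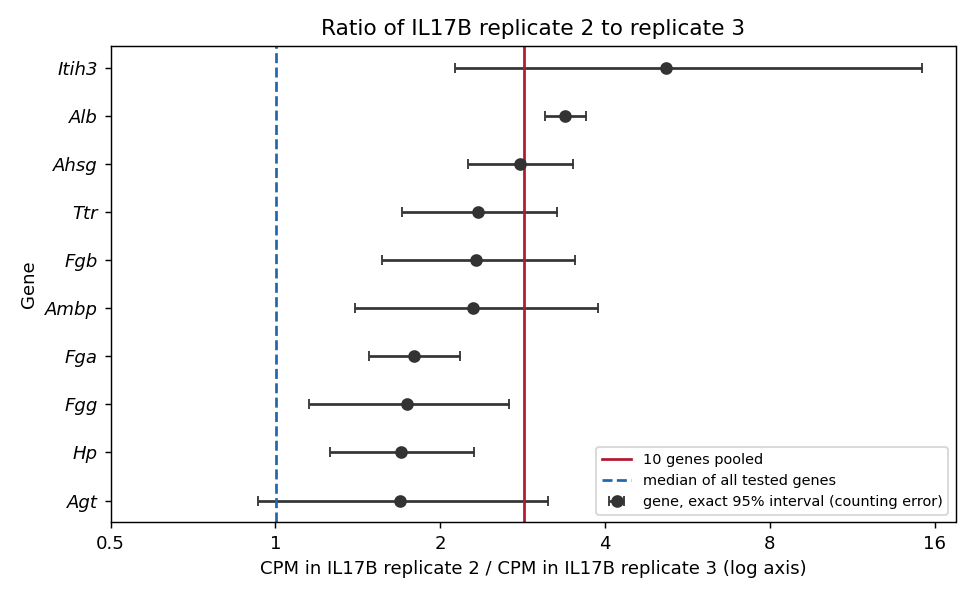
Ratio of the CPM in IL17B replicate 2 to the CPM in IL17B replicate 3 for each gene (logarithmic axis), with exact 95% intervals for counting error. The solid line marks the 10 genes pooled (2.84) and the broken line the median of all tested genes (1.00). Each point lies to the right of the broken line and only the interval of Agt crosses it.

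All 10 genes had at least 15 counts over the 6 libraries and entered edgeR's quasi-likelihood test of IL17B against PBS. Of the 10, only Hp reached that total without IL17B replicates 2 and 3. At an adjusted p of at most 0.05 edgeR called 0 of the 10, and 0% of the 13866 genes tested, among which DESeq2 called 6 and limma-voom 0. Their adjusted p lay between 0.862 and 0.909 by edgeR. All 10 had an unadjusted p under 0.05, as did 726 of all tested genes, and DESeq2 and limma-voom called 0 of the 10 as well. For Hp the level was 1.17 ± 0.291 CPM under PBS and 3.43 ± 2.56 CPM under IL17B (SD, n = 3 each), with a log2 fold change of 1.55 (SE 0.55, edgeR adjusted p = 0.909). Ambp had a log2 fold change of 4.19 (SE 1.28) and Agt of 3.32 (SE 1.01), each with an edgeR adjusted p = 0.862. The median log2 fold change of the 10 was 8.24, or 5.24 with the 7 genes at 0 in PBS set at the floor of 3 counts, and that of all tested genes was 0.00034.

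None of the 10 had each IL17B library above each PBS library, which was the case for 5.16% of the 13866 tested genes. In all 10, IL17B replicates 2 and 3 were both above the other 4 libraries, which was the case for 6.44% of the tested genes. The genes were chosen for this pattern and nothing is read from these counts. Without IL17B replicate 1, edgeR called 9 of the 10 as higher, all but Itih3, and 0.565% of the 13636 genes then tested. This outcome was largely set in advance by the choice of the genes on these libraries, and it carries no support. Without IL17B replicates 2 and 3, an alternative chosen after seeing the data, Hp alone had enough counts for the fit, with a log2 fold change of -0.49 that edgeR did not call.

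Transcripts of hepatocytes that do not encode plasma proteins moved with the 10 genes. Of 22 hepatocyte markers that are not secreted, 19 had the pattern of the 10 genes, IL17B replicates 2 and 3 both above the other 4 libraries. Among the 20 tested it was 17, beside 6.44% of all tested genes. Of these 17, all but Cyp2e1 reached the filter of 15 counts only through IL17B replicates 2 and 3. The share among the tested markers was thus largely set by the filter, and nothing is read from it. Of the 22, 15 are themselves upregulated DEGs of the study. Of the other 7 markers, 4 showed the pattern. Cyp2e1, a liver cytochrome P450, had 3, 9 and 8 counts under PBS and 7, 284 and 119 counts under IL17B. Cyp3a11, another P450, had 0 counts in the PBS libraries and in IL17B replicate 1, 179 in IL17B replicate 2 and 41 in IL17B replicate 3. Tat, an enzyme of tyrosine breakdown, was likewise at 0 in 4 libraries, with 101 and 40 counts in IL17B replicates 2 and 3. In all, 12 of the 22 markers were at 0 in the other 4 libraries, and all 12 were detected in both IL17B replicates 2 and 3. Fah and Slc10a1, which had counts in all 6 libraries, were among those without the pattern.

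The 21 hepatocyte markers with under 20 counts in each PBS library summed to 1.31, 1.504 and 1.37 CPM under PBS, against 1.72, 63.1 and 25.2 CPM under IL17B. Their ratio of IL17B replicate 2 to replicate 3 was 2.55 (exact 95% interval 2.30 to 2.84) over the 16 of them with at least 20 counts in these libraries. The ratio of the plasma protein genes without Alb was 2.14 (1.93 to 2.37), so the intervals overlapped. In bulk RNA such as this, fewer cells of a type and less RNA per cell cannot be told apart. The part of hepatocyte transcripts in the result was not tested. edgeR called 0 of the 20 hepatocyte markers tested, of which 16 had an unadjusted p under 0.05, and DESeq2 and limma-voom called 0 as well. Their median log2 fold change was 6.32, or 3.69 with genes at 0 in PBS set at the floor. The pattern was seen in 0 of 5 Kupffer cell markers, 1 of 5 liver endothelial markers, 1 of 5 stellate cell markers and 0 of 4 cholangiocyte markers. Only 3, 3, 0 and 2 of these had enough counts to be tested. The stellate cell marker was Des, with 1 count in IL17B replicates 2 and 3 and in PBS replicates 1 and 2. Cd5l, Oit3 and Spp1 had at least 243, 268 and 31389 counts in each library. Markers expressed throughout, or near 0 throughout, cannot show whether a small amount of such transcripts was present, which was not tested. Clec4f, which marks the resident macrophages of the liver, had 2 counts in IL17B replicate 2 and 0 in the other 5 libraries.

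Other proteins that the liver secretes showed the same pattern in many cases. Over 5 lists of such proteins, with 79 genes in the table, IL17B replicates 2 and 3 were both above the other 4 libraries for 44. Of the 60 genes tested it was 36, beside 6.44% of all tested genes. Many of the 36, with some in each of the 5 lists, reached the filter of 15 counts only through IL17B replicates 2 and 3. The shares among tested genes, here and list by list below, were thus partly set by the filter, and nothing is read from them. The lists were drawn up with earlier results of these data known, and 29 of the 79 genes are upregulated DEGs of the study. edgeR called 0 of the 60 genes tested in either direction, of which 33 had an unadjusted p under 0.05, and DESeq2 and limma-voom called 0.

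Among carrier proteins the pattern was seen in 7 of 12 genes, 5 of them among the 9 tested. Of the 7, Orm1 had 7 counts in both IL17B replicate 3 and PBS replicate 2, so that only the library scaling set these apart. Serpina6 and Afm had 1 count each in IL17B replicate 3. The share of all tested genes, 6.44%, stands beside this list and those below. Gc, the vitamin D carrier, had 0 counts under PBS and 0, 145 and 42 counts under IL17B. Hpx (hemopexin, which binds heme) had 9, 6 and 3 counts under PBS and 5, 118 and 55 counts under IL17B. Both thus separated in the same libraries as Hp and Alb. Rbp4, the retinol-binding protein that circulates bound to transthyretin, had 0, 1 and 1 counts under PBS and 0, 94 and 30 counts under IL17B. Selenop, a selenium carrier, was expressed in all libraries, at 1691 ± 128 CPM under PBS and 1775 ± 131 CPM under IL17B (log2 fold change 0.07, SE 0.07, edgeR adjusted p = 0.988). The list had a ratio of IL17B replicate 2 to replicate 3 of 2.66 (2.203 to 3.22) over its genes low in PBS, and a median log2 fold change of 0.88.

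In the family of fetuins and inter-alpha-trypsin inhibitors, 7 of 8 genes showed the pattern, 6 of them among the 7 tested. Hrg (histidine-rich glycoprotein) had 0 counts under PBS and 0, 121 and 60 counts under IL17B, and Kng1 (kininogen, the source of bradykinin) had 0 under PBS and 0, 53 and 19 under IL17B. Itih4 had 41 counts and Itih2, a heavy chain like Itih3, had 32 counts in IL17B replicate 2, against at most 1 count in any of the other 4 libraries. Itih5 was the exception, with 13, 1 and 3 counts under PBS and 9, 2 and 0 counts under IL17B. The median log2 fold change was 5.02, or 4.30 with genes at 0 in PBS set at the floor.

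Of 25 coagulation and fibrinolysis genes, the partners of fibrinogen in the clot, 13 showed the pattern, 12 of them among the 22 tested. Plg (plasminogen, the precursor of the protease that dissolves fibrin) had 0 counts under PBS and 0, 89 and 40 counts under IL17B. F2 (prothrombin) had 2, 0 and 3 counts under PBS and 0, 48 and 19 under IL17B, and Serpinc1 (antithrombin) had 8, 4 and 7 under PBS and 7, 64 and 22 under IL17B. Plau (urokinase, which activates plasminogen) was at 43.1 ± 12.1 CPM under PBS and 40.9 ± 9.55 CPM under IL17B, with an edgeR adjusted p = 0.993. Pros1 (protein S, a cofactor that restrains clotting) is 1 of the 13 although it was expressed throughout, with 602, 602 and 628 counts under PBS and 642, 654 and 670 counts under IL17B. Its levels were 29.7 ± 0.87 CPM and 32.0 ± 0.594 CPM (log2 fold change 0.11, SE 0.06, edgeR adjusted p = 0.96). F5 (factor V) is also 1 of the 13, with 127, 120 and 173 counts under PBS and 171, 179 and 194 counts under IL17B. The median log2 fold change of the list was 0.33.

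Acute-phase proteins showed the pattern in 8 of 16 genes, all 8 among the 12 tested. Serpina1b and Serpina1a, alpha-1-antitrypsins whose near-identical copies make the split of reads between them uncertain, had 0 counts in 4 libraries. In IL17B replicates 2 and 3 Serpina1b had 221 and 104 counts and Serpina1a had 201 and 65. Mug1, a protease inhibitor of the alpha-macroglobulin family, had 158 and 40 counts in these libraries and 0 elsewhere. Of the serum amyloids, major acute-phase proteins of the mouse, Saa1 had 7 counts in IL17B replicate 2 and 0 in the other 5 libraries. Saa3, which macrophages express, had 78, 98 and 91 counts under PBS and 74, 64 and 58 counts under IL17B, each IL17B library below each PBS library (log2 fold change -0.44, SE 0.15, edgeR adjusted p = 0.909). Among 18 complement genes 9 showed the pattern, most of them at low counts and 5 of them among the 10 tested. C3, the most abundant of them, was at 261.3 ± 41.5 CPM under PBS and 232.9 ± 9.24 CPM under IL17B, which edgeR did not call (adjusted p = 0.973). The median log2 fold change was 0.33 for complement and 6.03 for acute-phase proteins, or 3.59 for the latter with genes at 0 in PBS set at the floor.

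**Figure D4:**
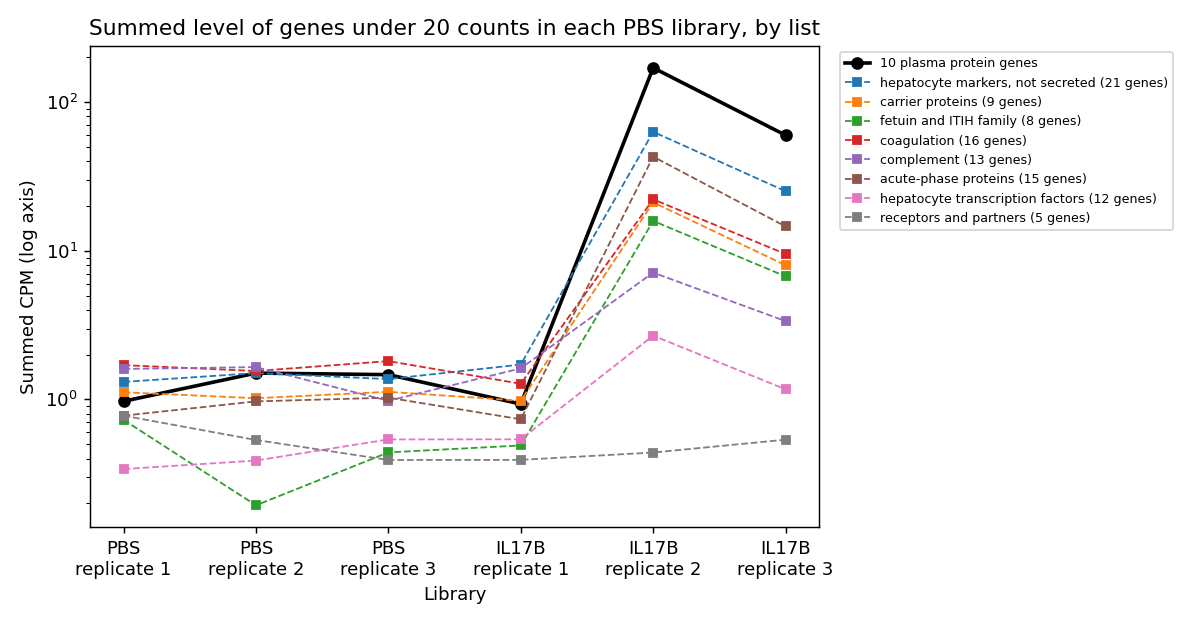
Summed CPM (logarithmic axis) in each library for the 10 plasma protein genes and, for 8 lists, for those genes with under 20 counts in each PBS library. The 10 genes, the hepatocyte markers and the lists of liver-secreted proteins are below 2 CPM in 4 libraries and highest in IL17B replicate 2, then IL17B replicate 3, whereas the receptors and partners of the plasma proteins stay below 1 CPM throughout.

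The same pattern was looked for in receptors and partners of the plasma proteins, the renin-angiotensin system, and IL6 and STAT3 signalling. It held for 0 of 11, 0 of 7 and 0 of 13 of their tested genes, beside 6.44% of all tested genes. For lists this short a value of 0 is near that share, so nothing is read from it. Of 15 receptors and partners, 0 showed the pattern, and edgeR, DESeq2 and limma-voom called 0 of the 11 tested, 2 with an unadjusted p under 0.05. Their median log2 fold change was 0.04. Cd163, the receptor for the complex of haptoglobin and hemoglobin, was at 7.03 ± 1.16 CPM under PBS and 9.96 ± 0.852 CPM under IL17B, and here all 3 IL17B libraries were above the PBS libraries (log2 fold change 0.50, SE 0.13, edgeR adjusted p = 0.862). Itgam and Itgb2, which together form a receptor for fibrinogen, were at 1031 ± 51.4 and 1140 ± 82.7 CPM under PBS and at 1106 ± 28.2 and 1172 ± 26.9 CPM under IL17B. Fcgrt, the receptor that spares albumin from breakdown, was at 51.5 ± 3.92 CPM under PBS and 56.6 ± 10.7 CPM under IL17B. In the renin-angiotensin system, to which Agt belongs, 1 of 11 genes showed the pattern (Agtr1a, an angiotensin receptor, with 3 and 2 counts). The IL6 and STAT3 pathway, which drives fibrinogen and haptoglobin in the liver, had the pattern in 0 of 14 genes, and edgeR, DESeq2 and limma-voom called 0 of the 13 tested, 1 with an unadjusted p under 0.05. Stat3 was at 148.0 ± 6.74 CPM under PBS and 148.7 ± 1.49 CPM under IL17B, and the median log2 fold change of the pathway was 0.03.

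Of 15 transcription factors of hepatocytes in the table, 5 showed the pattern, but 4 of these had too few counts to be tested. Among these 4, Prox1 had 2 counts in both IL17B replicate 3 and PBS replicate 2, a difference set by the library scaling alone. Nr1i2 and Nr5a2 had 1 count each in IL17B replicate 3. Of the 6 tested, Hnf4a alone showed it, beside 6.44% of all tested genes. It reached the filter of 15 counts only through IL17B replicates 2 and 3. Hnf4a, a nuclear receptor needed for hepatocyte identity, had 0 counts under PBS and 0, 19 and 11 counts under IL17B, the libraries in which the plasma proteins were found. The factors Cebpa and Cebpb, which act in hepatocytes and in macrophages, were expressed throughout. Cebpa was at 145.4 ± 1.51 CPM under PBS and 138.8 ± 11.6 CPM under IL17B, and Cebpb at 181.1 ± 20.1 and 157.6 ± 10.2 CPM. edgeR, DESeq2 and limma-voom called 0 of the 6 factors tested, 2 with an unadjusted p under 0.05, and their median log2 fold change was 0.17.

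The promoters of 8 of the 10 genes were available as windows from 250 bases before to 50 bases after the RefSeq start in GRCm38.p6. They were searched on both strands for TTGCNNAA, a site of C/EBP factors, and for TATAAA, the TATA box. TTGCNNAA was found in 4 of the 8 (Alb, Fga, Fgb and Ahsg) and in 10.8% of all 32851 windows, and TATAAA in 2 of the 8 (Itih3 and Agt) and in 13.6% of all windows. The TATAAA match began 30 bases before the start in Agt, but past the start, at base 4, in Itih3. The 4 windows with TTGCNNAA are shown because they belong to genes with at least 86 counts in IL17B replicate 2 that moved together, with the match to this motif in capitals. They are chr5:90460620-90460919 on the plus strand for Alb, chr3:83025903-83026202 on the plus strand for Fga, chr3:83049814-83050113 on the minus strand for Fgb and chr16:22891765-22892064 on the plus strand for Ahsg. The match began 94 bases before the start in Alb, 135 bases before it in Fga, 80 bases before it in Fgb and 32 bases before it in Ahsg. A match is a string of letters and says nothing on its own about binding.
Alb: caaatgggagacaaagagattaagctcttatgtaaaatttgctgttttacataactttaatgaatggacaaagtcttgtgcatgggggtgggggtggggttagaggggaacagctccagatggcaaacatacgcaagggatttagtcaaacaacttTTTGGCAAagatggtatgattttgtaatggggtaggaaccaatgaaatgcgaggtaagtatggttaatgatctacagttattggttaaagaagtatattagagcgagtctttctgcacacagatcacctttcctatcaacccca
Fga: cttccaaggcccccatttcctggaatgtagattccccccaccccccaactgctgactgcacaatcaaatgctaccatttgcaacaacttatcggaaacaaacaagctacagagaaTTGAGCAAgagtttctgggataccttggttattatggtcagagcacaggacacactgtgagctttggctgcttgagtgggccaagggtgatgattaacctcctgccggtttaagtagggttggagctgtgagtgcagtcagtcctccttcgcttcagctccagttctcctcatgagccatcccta
Fgb: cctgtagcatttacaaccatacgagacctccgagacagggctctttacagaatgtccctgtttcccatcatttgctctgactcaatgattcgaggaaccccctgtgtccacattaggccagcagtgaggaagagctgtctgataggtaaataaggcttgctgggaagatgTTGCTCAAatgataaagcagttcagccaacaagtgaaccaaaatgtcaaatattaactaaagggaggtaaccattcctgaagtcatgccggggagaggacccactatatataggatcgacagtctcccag
Ahsg: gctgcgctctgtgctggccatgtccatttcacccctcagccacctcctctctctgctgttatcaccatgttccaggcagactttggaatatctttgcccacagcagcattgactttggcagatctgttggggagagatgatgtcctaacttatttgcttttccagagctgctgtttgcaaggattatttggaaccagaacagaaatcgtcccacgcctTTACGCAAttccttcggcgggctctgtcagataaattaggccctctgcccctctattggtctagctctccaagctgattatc

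By the profile over the 6 libraries, the gene that was no member and most like the sum of the 10 was Pck1, an enzyme of gluconeogenesis. Likeness was measured as the summed absolute difference between the library shares of a gene's CPM, which is 0 for identical profiles. Pck1 had a distance of 0.0298, with 2, 1 and 0 counts under PBS and 0, 147 and 54 counts under IL17B. Next were Apoa1, the main protein of HDL, at 0.0339, and then Kng1, Serpina1c, Mup20, Vtn, Cyp4a14 and Serpina1d, at 0.0416 to 0.0437. Apoa1 had 0, 0 and 2 counts under PBS and 0, 386 and 139 counts under IL17B. All 8 are upregulated DEGs of the study. Serpina1c, Serpina1d and Mup20 belong to families of similar genes, within which the split of reads can be uncertain. The median distance over the 12415 genes with at least 50 counts was 1.29, and 45 genes were within 0.2. Of the 10 genes, Ahsg was nearest to their sum, at 0.0416, and Hp and Agt were farthest, at 0.587 and 0.353.

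Beyond named lists, 189 tested genes had under 20 counts in each PBS library, at least 20 counts over IL17B replicates 2 and 3, and both of these above the other 4 libraries. Of the 189, 171 had more CPM in IL17B replicate 2 than in replicate 3. Their median ratio was 1.95 (quartiles 1.22 and 2.78), and the median of the 10 genes, 2.31, lay within these quartiles. Of the 10 plasma protein genes all but Hp are among the 189, since Hp had 18, 30 and 24 counts under PBS.

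Most of the nearest genes on the chromosome did not follow the plasma protein genes. The 10 genes had 16 neighbours with a row in the table that were not among the 10. In 3 of them IL17B replicates 2 and 3 were both above the other 4 libraries, beside 6.44% of all tested genes. Dsg2, Lrat, Kif12 and Capn9 had too few counts to be tested and could hardly show the pattern. The 3 with the pattern were Fetub, beside Ahsg on chromosome 16, and Itih4 and Itih1, on either side of Itih3 on chromosome 14. Fetub (fetuin-B) had 1, 2 and 5 counts under PBS and 0, 57 and 24 counts under IL17B. Afp (alpha-fetoprotein, the fetal relative of albumin) starts 14112 bases after the end of Alb, which lies on chromosome 5 at 90460870 to 90476602. It had 28, 27 and 32 counts under PBS and 23, 19 and 32 counts under IL17B, with no separation of the libraries. Txnl4b, 1077 bases from Hp on chromosome 8, had 234, 257 and 235 counts under PBS and 241, 229 and 258 counts under IL17B. Plrg1, next to Fgb, had 880, 820 and 760 counts under PBS and 764, 856 and 818 counts under IL17B. Neither moved with its neighbour. Of the remaining genes, Hp lies on chromosome 8 at 109575128 to 109579172, Ahsg on chromosome 16 at 22892015 to 22899451 and Ambp on chromosome 4 at 63143275 to 63154172. Itih3 lies on chromosome 14 at 30908572 to 30923787, Agt on chromosome 8 at 124556587 to 124569706 and Ttr on chromosome 18 at 20664209 to 20674326, all in GRCm38.p6.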

How the data were processed

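Single-end RNAseq of BMDM was done for 3 samples with PBS and 3 samples with IL17B, grouped by their titles. Per the deposited table and the submitters' processing notes, the authors aligned reads with HISAT2 2.0.4 to the genome and with Bowtie2 2.2.5 to the coding genes of GRCm38.p6, and RSEM 1.2.12 gave each gene an estimated count per library. Of the deposited estimated counts 68.5% are whole numbers, since RSEM splits a read among the genes it fits. The deposited FPKM values are the authors' scaling of these counts by length and depth and were used to compare genes per length. The deposited TPM values were not tested. Strand was not stated to be kept. The authors' averages for each treatment and their DESeq2 1.4.5 comparison, of which only the gene IDs of the upregulated DEGs were read, gave no value here. Columns of values that were assigned to no sample or treatment numbered 0, and the TPM columns were assigned but not used.

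The estimated counts were rounded, and genes whose total over the libraries reached 15 were tested by the two-sided quasi-likelihood test of edgeR 4.0.16 (R 4.3.3; TMM, Benjamini-Hochberg adjusted p of at most 0.05 over all 13866 genes, no block). Fold changes are IL17B over PBS. A symbol shared by 2 rows (Plin2) was kept as separate rows. Intervals (95%) and floors (3 counts) hold for counting error only. The members and lists were chosen with earlier results of these data known. Genes named are the members, up to 4 highly expressed and up to 4 low-in-PBS genes of each list, the 8 nearest profiles and the genomic neighbours, as far as a result turns on them. Slc10a1, F5, Saa1, Itih2, Itih5, Clec4f, Des, Agtr1a, Cd163, Fcgrt, Orm1, Serpina6, Afm, Prox1, Nr1i2 and Nr5a2 were named after their values were seen. Promoter windows come from RefSeq. A planned search for a further motif is not reported here. Alternatives were DESeq2 1.42.0 and its size factors, library totals, filterByExpr, no filter, limma 3.58.1 on log2 FPKM plus 0.1 or 1, limma-voom with quality weights, a replicate block and each library left out. The fit was tested on simulated data.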

Additional observations from a re-analysis of the deposited data

How the results depend on the processing

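With DESeq2 size factors, library totals, filterByExpr, no filter or limma-voom, the number of genes called stayed at 0. DESeq2 called 6 genes and limma on log2 FPKM plus 0.1 called 1, none of them among the 10. Leaving out 1 library gave 0 to 86 genes called, 0 to 9 of the 10 plasma protein genes and 0 to 30 of the list genes, and the highest values all came without IL17B replicate 1. Without IL17B replicates 2 and 3 together the log2 fold change of Hp turned to -0.49. filterByExpr kept Hp alone of the 10. With a replicate block edgeR called 76 genes, 6 of the 10 (Alb, Ttr, Fga, Fgb, Fgg and Ahsg) and 25 list genes, and 0.534% of all tested genes were called as higher. The 10 were chosen on these libraries, so their calls in either setting carry no support. Same-numbered samples did not stand out as pairs: their deviations from the mean of their treatment correlated at -0.0845, 0.016 and -0.131. PBS replicate 1 correlated best with IL17B replicate 3, at 0.183. Such deviations sum to 0 within a treatment, which constrains these values, so they cannot show whether the replicate numbers pair the samples. Summed FPKM gave 87.1 and 31.1 for IL17B replicates 2 and 3, another unit, and the sum without Alb was 56.0 and 26.2 CPM. The pooled ratio was 2.14 without Alb and 2.31 as the median of the genes, and 2.80 to 2.88 under the other scalings. With 0 counts in 4 libraries for most of the 10, depth limits what can be said of them there to levels under the floor.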
